A study of Mus musculus with 6 samples.

Results

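Transcripts of 10 genes of the NF-κB system were examined in RNA labelled as left ventricle. The mice modelled HFpEF, heart failure in which the ejection fraction is preserved. The genes encode the 5 subunits of the transcription factor (Nfkb1, Nfkb2, Rel, Rela, Relb) and 5 inhibitors that act back on it (Nfkbia, Nfkbib, Nfkbie, Nfkbiz, Tnfaip3). They were matched by symbol, and all 10 were among the 14408 genes of the table. The L-proline group had 3 libraries from mice injected intraperitoneally with L-proline at 300 mg/kg daily for 4 to 8 weeks, and the PBS group had 3 libraries from mice injected with PBS, the vehicle. Before the injections both groups, male C57BL/6J mice aged 8 weeks at the start, had received a high-fat diet for 8 to 12 weeks with the nitric oxide synthase inhibitor L-NAME at 0.5 g/L in their water. No library of mice without diet and L-NAME was used here, so each difference is between 2 groups that carry the same disease model. The study's stated interest was ferroptosis and PPARγ, and the NF-κB genes are read from the same libraries.

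NF-κB is a family of dimeric transcription factors that is held in the cytoplasm by IκB proteins. Signals from receptors for TNF, interleukin 1 and microbial products activate the IκB kinase complex, IκB is degraded, and the freed dimers enter the nucleus and switch on genes of inflammation and survival. Among the genes switched on are those of some of their own inhibitors, which helps to end the response. In the heart, fibroblasts, endothelial cells, leukocytes and heart muscle cells all use the pathway.

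Values are FPKM, the fragments of a gene scaled to its length and to the library's total. Totals recovered from the FPKM values were 34990473 to 37498030 fragments per library. Each member was backed by 264 to 7779 fragments in a library, so counting error alone was at most 6.16% of a value, and this was for Rel. All 10 members had a mean of at least 1 FPKM over the 6 libraries, the minimum for testing. Of 11 heart muscle markers 5 were in the table, and apart from Tnnt2 none of these was above 0.212 FPKM, so the labelled tissue was not matched by its defining muscle transcripts. Tnnt2 itself, a sarcomere gene, was 14.6 ± 1.52 FPKM in L-proline and 32.0 ± 0.777 FPKM in PBS (SD, n = 3 each; limma, adjusted p = 0.000326). The 6 fibroblast markers in the table, of 8, summed to 2756 to 3124 FPKM in L-proline and 2025 to 2074 FPKM in PBS. The collagen genes carried this sum, with Col3a1 at 1824 ± 150 FPKM in L-proline and 1226 ± 18.5 FPKM in PBS, and Col1a1, Col1a2 and Col3a1 rose. Pdgfra, a fibroblast receptor, fell, at 5.97 ± 0.135 FPKM in L-proline and 7.84 ± 0.463 FPKM in PBS (limma, adjusted p = 0.0215), and Dcn and Postn did not pass. The 5 macrophage markers in the table, of 7, summed to 21.8 to 25.4 FPKM in L-proline and 19.7 to 22.2 FPKM in PBS, with Mrc1 and Csf1r at or near 0. Cd14 made up most of that sum and did not pass, while Cd68 rose, at 5.19 ± 0.297 FPKM in L-proline and 3.17 ± 0.536 FPKM in PBS (limma, adjusted p = 0.0101). The 4 endothelial markers in the table, of 7, summed to 0.197 to 0.330 FPKM in L-proline and 0.216 to 0.348 FPKM in PBS. Like the muscle transcripts, these levels did not match the labelled tissue. The 7 pericyte and smooth muscle markers summed to 852 to 1050 FPKM in L-proline and 944 to 1059 FPKM in PBS. Acta2 made up most of that sum, at 826.3 ± 85.95 FPKM in L-proline and 850.2 ± 51.6 FPKM in PBS, while Myh11 and Rgs5 were near 0. The T cell and B cell markers in the table were at or near 0. The part of shifts in cell makeup in the results below was not tested, and fewer cells of a type cannot be told apart from less RNA per cell.

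The libraries also differed within their groups in a shared way. For 27.6% of the 10500 tested genes L-proline 1 was the highest of its group and PBS 2 the lowest of its own, and for 29.8% it was the reverse. Across genes, the deviations of these 2 libraries from their group means had a correlation of -0.75. Calls are therefore given below also without either library where a result rests on it.

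Among the members, the transcript of Tnfaip3 fell with L-proline and the other 9 did not pass the test. Tnfaip3 encodes A20, a ubiquitin-editing enzyme that restrains the IκB kinase complex and is a classic NF-κB target. It averaged 6.53 ± 0.299 FPKM in L-proline and 11.2 ± 0.434 FPKM in PBS (SD, n = 3 each), a change of -41.8%. Groups overlapped for 4 of the 5 subunits, all but Nfkb2. The other 4 inhibitors differed from PBS by -19.5% to -11.1% on average and missed the threshold. Differences were tested with limma on log2(FPKM + 1), with Benjamini-Hochberg adjustment over all tested genes and a threshold of 0.05. At that threshold 1 of 10 members was called, in the lower direction, against 19.6% of all tested genes in either direction and 12.1% in the lower one, so the share called among the members was not above that of all genes. Of the 10 members, 7 had a log2 fold change below 0, against 59.4% of all tested genes.

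**Figure D1:**
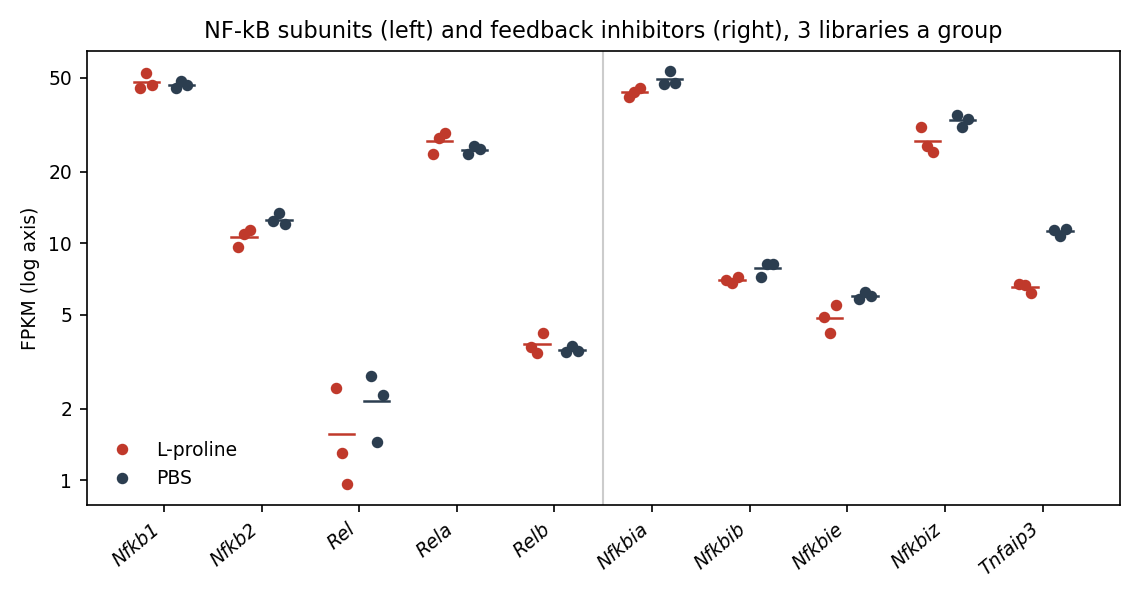
FPKM of the 10 members in each library on a log axis, with L-proline points left of PBS points and a bar at each mean of 3 libraries. The groups stand furthest apart for Tnfaip3, at 6.19 to 6.74 FPKM in L-proline and 10.7 to 11.5 FPKM in PBS, and Rel has the widest spread within each group.

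Among the subunits, the order of levels was the same in both groups, from Nfkb1 through Rela, Nfkb2 and Relb down to Rel. Nfkb1 encodes the precursor of the p50 subunit, which binds DNA but lacks an activation domain of its own. Its level was 45.1, 52.3 and 46.6 FPKM in L-proline 1, 2 and 3, against 45.0, 48.3 and 46.4 FPKM in PBS 1, 2 and 3. The groups overlapped, and the log2 fold change was 0.04 ± 0.08 (standard error; limma, adjusted p = 0.738), with a 95% interval of -0.14 to 0.22.

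Rela encodes p65, the subunit that carries the main activation domain and pairs with p50 in the common dimer. Its level was 23.9, 27.7 and 29.2 FPKM in L-proline 1, 2 and 3, and 23.8, 25.7 and 25.0 FPKM in PBS 1, 2 and 3. L-proline 1 lay inside the PBS range and the other 2 L-proline libraries above it. The log2 fold change was 0.11 ± 0.09 (limma, adjusted p = 0.421; 95% interval -0.10 to 0.31).

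Nfkb2 and Relb belong to the slower, non-canonical arm of the pathway, in which p100, the Nfkb2 product, is processed to p52 and pairs with RelB. Nfkb2 stood at 9.64, 10.96 and 11.4 FPKM in L-proline and at 12.4, 13.4 and 12.0 FPKM in PBS. Each L-proline library lay below each PBS library, yet the log2 fold change did not pass, at -0.22 ± 0.09 (limma, adjusted p = 0.115). Nfkb2 is itself known as an NF-κB target gene. Relb was 3.65, 3.44 and 4.17 FPKM in L-proline and 3.49, 3.68 and 3.52 FPKM in PBS, with overlapping groups and a fold change of 0.06 ± 0.09 on the log2 scale (limma, adjusted p = 0.688).

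Rel encodes c-Rel, a subunit best known from lymphocytes, and it was the lowest of the members. Its level was 2.46, 1.30 and 0.962 FPKM in L-proline 1, 2 and 3, and 2.74, 1.45 and 2.30 FPKM in PBS 1, 2 and 3. Both groups hold high and low libraries, so the difference, -0.32 ± 0.23 on the log2 scale, did not exceed the spread (limma, adjusted p = 0.350; 0.0501 without L-proline 1 and 0.176 without PBS 2). The within-group SD of Rel on the log2 scale was 0.371, at percentile 97.1 of all tested genes, while that of Tnfaip3 was 0.0549, at percentile 8.49.

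Levels between genes depend on the lengths used for FPKM. The length recovered from the values was 11300 bases for Nfkb2 and 8706 bases for Relb, while the longest coding transcripts in GENCODE M21 have 3846 and 2209 bases. Over these shorter lengths the same fragments would give 31.4 FPKM in L-proline and 37.0 FPKM in PBS for Nfkb2, close to Rela at 33.4 FPKM in L-proline and 30.8 FPKM in PBS on its own longest transcript. Relb would stand at 14.8 FPKM in L-proline and 14.1 FPKM in PBS. For the other 8 members the recovered length was 0.946 (Nfkbiz) to 1.24 (Rela) times that of the longest coding transcript. The place of Nfkb2 and Relb among the members is therefore uncertain, while the fragments compared between groups for 1 gene share the same length.

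The inhibitors were all lower on average in L-proline, and with the deposited FPKM each of the 5 had every L-proline library below every PBS library, against 24.0% of all tested genes. With median-of-ratios scaling this held for Tnfaip3 alone, and with quantile normalization for Nfkbia and Tnfaip3. Nfkbia encodes IκBα, the inhibitor that is degraded and remade fastest and exports NF-κB from the nucleus. Its level was 41.2, 43.3 and 45.3 FPKM in L-proline 1, 2 and 3, and 46.8, 53.1 and 47.4 FPKM in PBS 1, 2 and 3. L-proline 3 and PBS 1 were only narrowly apart, and the difference, -0.18 ± 0.08 on the log2 scale, did not pass (limma, adjusted p = 0.142).

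Nfkbib encodes IκBβ, which binds the same dimers and responds more slowly. It was 6.97, 6.83 and 7.23 FPKM in L-proline and 7.24, 8.21 and 8.22 FPKM in PBS, where L-proline 3 and PBS 1 were almost equal. Its log2 fold change was -0.15 ± 0.08 (limma, adjusted p = 0.233). Nfkbie encodes IκBε, a further inducible member of the family, and was 4.87, 4.18 and 5.46 FPKM in L-proline and 5.84, 6.21 and 5.99 FPKM in PBS. Its log2 fold change was -0.27 ± 0.10 (limma, adjusted p = 0.0939, and 0.0494 without L-proline 3).

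Nfkbiz encodes IκBζ, an atypical nuclear IκB that can restrain NF-κB but also acts as a coactivator at some secondary response genes. It stood at 30.8, 25.7 and 24.3 FPKM in L-proline 1, 2 and 3, and at 34.7, 31.0 and 33.6 FPKM in PBS 1, 2 and 3. L-proline 1 was just below PBS 2, and the log2 fold change was -0.29 ± 0.10 (limma, adjusted p = 0.0744). By limma it passed without L-proline 1 (-0.39, adjusted p = 0.0117) and with sample weights (-0.35, adjusted p = 0.00273). Of all 10500 tested genes, these settings called 2762 and 4671.

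Tnfaip3 was 6.74, 6.65 and 6.19 FPKM in L-proline 1, 2 and 3, and 11.4, 10.7 and 11.5 FPKM in PBS 1, 2 and 3. These values rest on 1183, 1112 and 1087 fragments in L-proline, against 2046, 1841 and 2021 fragments in PBS. The groups were wide apart, and the fold change was -0.70 ± 0.08 on the log2 scale (limma, adjusted p = 0.00111; 95% interval -0.88 to -0.52), rank 160 of 10500 genes by p. The call held in each of 15 alternatives, with a log2 fold change between -0.78 and -0.62 and an adjusted p between 5.41e-05 and 0.0115. Without L-proline 1 it was -0.72 (adjusted p = 0.00149) and without PBS 2 it was -0.73 (adjusted p = 0.00469). In order of deposited FPKM Tnfaip3 took place 6 in PBS, above Nfkbib, and place 7 in L-proline, below Nfkbib. These places depend on the lengths used. On longest coding transcripts Relb, at 14.1 FPKM in PBS, would stand above Tnfaip3, at 12.1 FPKM.

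**Figure D2:**
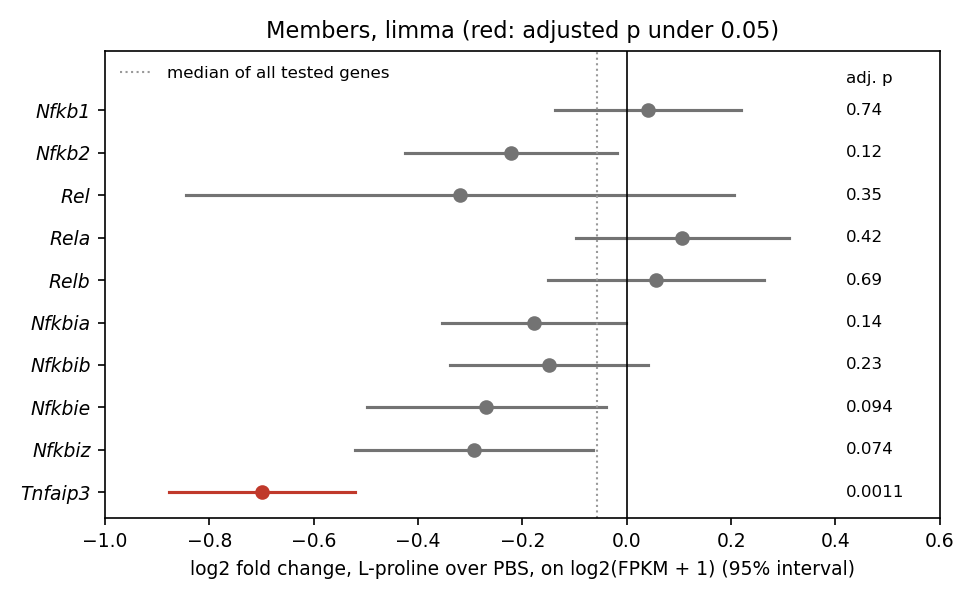
Log2 fold change of each member, L-proline over PBS, on the log2(FPKM + 1) scale, with 95% intervals from limma and adjusted p at the right. The interval of Tnfaip3 runs from -0.88 to -0.52 and overlaps that of no member other than Rel. It almost touches that of Nfkbiz, which starts at -0.5204. The dotted line marks the median of all tested genes at -0.06.

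How many members had groups apart depended on the scaling between libraries. With the deposited FPKM, 6 of 10 members were lower in L-proline without overlap, again against 24.0% of all tested genes, and 0 of 10 were higher without overlap (40.1% of all tested genes were apart in either direction). With median-of-ratios scaling this held for 1 of 10 members (18.3% of all tested genes), with quantile normalization for 2 of 10 (18.9%), and with rescaling without mitochondrial and the 20 most abundant genes for 5 of 10 (25.8%). Tnfaip3 was apart under each of these scalings. The differences of Nfkbia, Nfkbib, Nfkbie, Nfkbiz and Nfkb2 are thus of the size that a choice of scaling can move, although their log2 fold changes stayed below 0 under all 15 alternatives.

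A ratio of 2 transcripts in the same library does not change when the library is scaled by 1 factor, as it is in median-of-ratios scaling and in rescaling, though quantile normalization can change it. The Nfkbia to Rela ratio was 1.73, 1.56 and 1.55 in L-proline 1, 2 and 3, and 1.96, 2.07 and 1.89 in PBS 1, 2 and 3. The Tnfaip3 to Rela ratio was 0.283, 0.240 and 0.212 in L-proline and 0.479, 0.418 and 0.460 in PBS. Both ratios were lower in L-proline without overlap, and Tnfaip3 was also lower relative to Nfkbia, at 0.151 ± 0.0136 in L-proline and 0.230 ± 0.0239 in PBS (SD, n = 3 each).

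The Nfkbib to Rela ratio averaged 0.262 ± 0.0259 in L-proline and 0.317 ± 0.0124 in PBS, and the Nfkbie to Rela ratio 0.181 ± 0.0271 in L-proline and 0.242 ± 0.00296 in PBS (SD, n = 3 each). Only for Nfkbiz did the inhibitor to Rela ratios overlap, at 0.834 to 1.29 in L-proline and 1.21 to 1.46 in PBS. Thus 4 of 5 inhibitors were lower relative to Rela without overlap, against 31.2% of all tested genes set against Rela in the same way. The 5 ratios share their denominator, which averaged 26.9 FPKM in L-proline and 24.9 FPKM in PBS. These ratios were chosen after the values were seen, so they are given without a test; they show unequal levels of the 2 transcripts and not which of them differed.

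**Figure D3:**
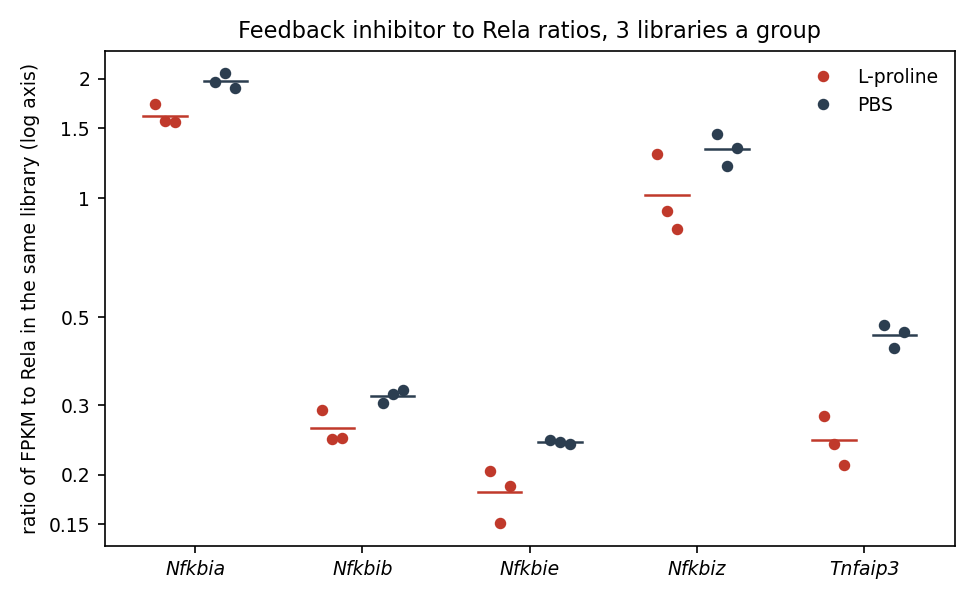
Ratio of the FPKM of each inhibitor to that of Rela in the same library, on a log axis, with L-proline points left of PBS points and bars at the means of 3 libraries. The ratios for Nfkbia, Nfkbib, Nfkbie and Tnfaip3 do not overlap between groups, and those for Nfkbiz do.

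Between the subunits, the Nfkb2 to Nfkb1 ratio was 0.223 ± 0.0196 in L-proline and 0.270 ± 0.0103 in PBS, without overlap. The Relb to Rela ratio was 0.140 ± 0.0146 in L-proline and 0.144 ± 0.00291 in PBS, and the Nfkb1 to Rela ratio 1.79 ± 0.170 in L-proline and 1.87 ± 0.0177 in PBS (SD, n = 3 each). Both of these ratios overlapped between the groups.

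Promoters of members are shown because some members, such as Tnfaip3 and Nfkb2, are known NF-κB targets. The 250 bases before each RefSeq transcription start (build GRCm38.p6) were at hand for 7 of the 10 members, in 10 windows; none was at hand for Nfkb1, Relb and Nfkbiz. They were searched on both strands for 2 forms of the κB site, a longer one (GGG, any 2 bases, then TTTCC) and a shorter one (GGAATTTCC), which can overlap. These letters were chosen after the windows had been seen. Capitals mark the matches, and each window reads 5′ to 3′ on the gene's strand, ending at the base before the start.

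Tnfaip3, chr10:19015411-19015660, minus strand: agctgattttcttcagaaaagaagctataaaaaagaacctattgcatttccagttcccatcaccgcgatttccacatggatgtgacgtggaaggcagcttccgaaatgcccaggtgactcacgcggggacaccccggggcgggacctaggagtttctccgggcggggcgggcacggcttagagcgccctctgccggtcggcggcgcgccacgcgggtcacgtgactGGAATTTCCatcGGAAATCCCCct
Nfkbia, chr12:55492648-55492897, minus strand: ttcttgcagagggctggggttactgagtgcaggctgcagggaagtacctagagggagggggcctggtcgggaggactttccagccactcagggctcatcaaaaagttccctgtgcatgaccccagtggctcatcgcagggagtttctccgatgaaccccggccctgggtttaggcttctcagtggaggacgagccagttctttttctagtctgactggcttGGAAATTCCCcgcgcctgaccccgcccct

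This Tnfaip3 window holds 1 match of each form, at bases -24 to -16 and -12 to -3 from the start. In the Nfkbia window the 2 forms match the same stretch, bases -29 to -20. Matches were also found for Nfkb2, at the starts at chr19:46304487-46304736 and chr19:46305680-46305929, and for Rel at chr11:23770970-23771219. A further Tnfaip3 window and a further Nfkb2 window held none. With 8 bases on each side, where the window holds them, the matches read as follows.
Nfkb2, window ending at 46304736: ggccgaaaGGGGCTTTCCc
Nfkb2, window ending at 46305929: gtattttcGGGACTTTCCtaagcagc
Rel: aagcagcgGGAAATCCCCccccctcc

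Neither form was found in the windows of Rela, Nfkbib and Nfkbie. Other forms of the κB site were not searched for, so any window may hold further sites. Among 32851 windows of all genes of the same length, 1.41% held the longer form and 0.286% the shorter one. Counted by gene, 1.89% of 27025 genes had either form. Since the forms were chosen after the members' windows had been seen, these shares cannot test whether matches are more common among the members. Of the 4 members with a match, only Tnfaip3 passed the expression test, and no binding was measured in these libraries.

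By likeness of pattern, the 3 tested genes closest to Tnfaip3 were Commd10, Pdcd6ip and Pcyt1b, by Pearson's r of log2(FPKM + 1) over the 6 libraries. All 3 had r of at least 0.999, and 541 of 10499 genes had r above 0.95, since any gene with a steady decrease follows the same 2 groups. Commd10 was 3.33 ± 0.122 FPKM in L-proline and 5.38 ± 0.154 FPKM in PBS (SD, n = 3 each; limma, adjusted p = 0.00295).

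Upstream of the subunits, ligands and receptors had 12 tested genes, of which 1 fell and 0 rose, no more than the 19.6% called among all tested genes. The gene that fell was Il33, an alarmin cytokine of the interleukin 1 family. Its level was 112, 80.7 and 62.5 FPKM in L-proline 1, 2 and 3, against 225, 157 and 199 FPKM in PBS 1, 2 and 3 (log2 fold change -1.20 ± 0.21; limma, adjusted p = 0.00674). Il1rap, the shared coreceptor for interleukins 1 and 33, was 1.73 ± 0.710 FPKM in L-proline and 3.08 ± 0.567 FPKM in PBS (limma, adjusted p = 0.0556). Tnfrsf12a, the receptor for TWEAK, was 57.9 ± 10.6 FPKM in L-proline and 77.2 ± 11.1 FPKM in PBS (adjusted p = 0.0843 by limma), and Ltbr, the lymphotoxin receptor, 39.5 ± 4.04 FPKM in L-proline and 32.9 ± 3.01 FPKM in PBS (adjusted p = 0.109 by limma). Without L-proline 1, Il1rap and Ltbr passed (adjusted p = 0.00606 and 0.0297), and Tnfrsf12a passed with quantile normalization (adjusted p = 0.0406).

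The classic activating ligands were scarce. Tnf reached at most 0.303 FPKM and Il1b at most 0.0706 FPKM, while Il1a reached 1.30 FPKM in PBS 1 and stayed under the minimum on average. Their receptors were present, with Tnfrsf1a, the main TNF receptor, at 84.6 ± 7.07 FPKM in L-proline and 77.3 ± 3.93 FPKM in PBS, and Il1r1 at 11.7 ± 1.26 FPKM in L-proline and 14.2 ± 1.68 FPKM in PBS (SD, n = 3 each). These 5 genes are named for their levels, and were chosen after the values were seen.

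Of 16 tested adaptors and ubiquitin ligases, which carry the signal from receptors to kinases, 2 rose and 0 fell. This was again below the 19.6% of all tested genes called in either direction. In the higher direction alone 7.50% of all tested genes were called, a smaller share than 2 of 16. Traf2, an adaptor of TNF receptors, was 13.5, 13.1 and 14.9 FPKM in L-proline, against 10.1, 9.83 and 8.55 FPKM in PBS (log2 fold change 0.50 ± 0.09; limma, adjusted p = 0.00874). Myd88, the adaptor of interleukin 1 and Toll-like receptors, was 12.6, 13.3 and 16.1 FPKM in L-proline, against 9.20, 10.4 and 9.56 FPKM in PBS (0.48 ± 0.10; limma, adjusted p = 0.0152). Its call was lost without PBS 1 (adjusted p = 0.0669) and without PBS 3 (adjusted p = 0.0695). Irak1 was 24.7 ± 1.04 FPKM in L-proline and 21.7 ± 1.49 FPKM in PBS, and Tradd 12.1 ± 1.62 FPKM in L-proline and 14.7 ± 1.45 FPKM in PBS, neither past the threshold.

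Of 11 kinase genes and their partners, 1 fell and 0 rose, a smaller share than the 19.6% of all tested genes. Ikbkb, the kinase that marks IκB proteins for degradation in the canonical arm, was 8.31, 8.58 and 8.05 FPKM in L-proline, against 10.5, 11.0 and 11.0 FPKM in PBS (log2 fold change -0.34 ± 0.07; limma, adjusted p = 0.0153). The groups were well apart, but the adjusted p was 0.0535, 0.0559 and 0.0870 without PBS 1, 2 and 3. Ikbke, a related kinase of antiviral signalling, was 6.86 ± 0.163 FPKM in L-proline and 8.29 ± 0.204 FPKM in PBS (adjusted p = 0.0542 by limma). It passed only with voom, rescaling and sample weights (limma, adjusted p = 0.0127 to 0.0460). The TAK1 partners Tab2 and Tab3 were 9.13 ± 2.10 and 0.9752 ± 0.407 FPKM in L-proline, and 12.8 ± 2.14 and 1.59 ± 0.1996 FPKM in PBS, with overlapping groups. Both passed without L-proline 1 (adjusted p = 0.0129 and 0.0143).

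Of 13 tested further IκB proteins and negative regulators, 1 fell and 0 rose, likewise below 19.6%. Tnip1 encodes ABIN-1, a ubiquitin-binding partner of A20. It was 17.4, 24.1 and 22.7 FPKM in L-proline, against 27.7, 31.0 and 29.9 FPKM in PBS (log2 fold change -0.46 ± 0.12; limma, adjusted p = 0.0318). This call was lost without PBS 1, 2 or 3 (adjusted p = 0.0702, 0.0845 and 0.114) and with median-of-ratios scaling (adjusted p = 0.0556). The deubiquitinases Otud7b and Otulin, which also restrain the pathway, were 14.0 ± 0.293 and 15.1 ± 1.15 FPKM in L-proline, and 16.8 ± 0.936 and 17.7 ± 0.763 FPKM in PBS (adjusted p = 0.0504 and 0.0943 by limma). Otud7b passed only with the filter of 5 FPKM, voom, rescaling and sample weights (limma, adjusted p = 0.00658 to 0.0458). Otulin passed only with rescaling (limma, adjusted p = 0.0471). The ubiquitin ligase Itch was 10.1 ± 2.29 FPKM in L-proline and 12.6 ± 1.69 FPKM in PBS, with overlapping groups.

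**Figure D4:**
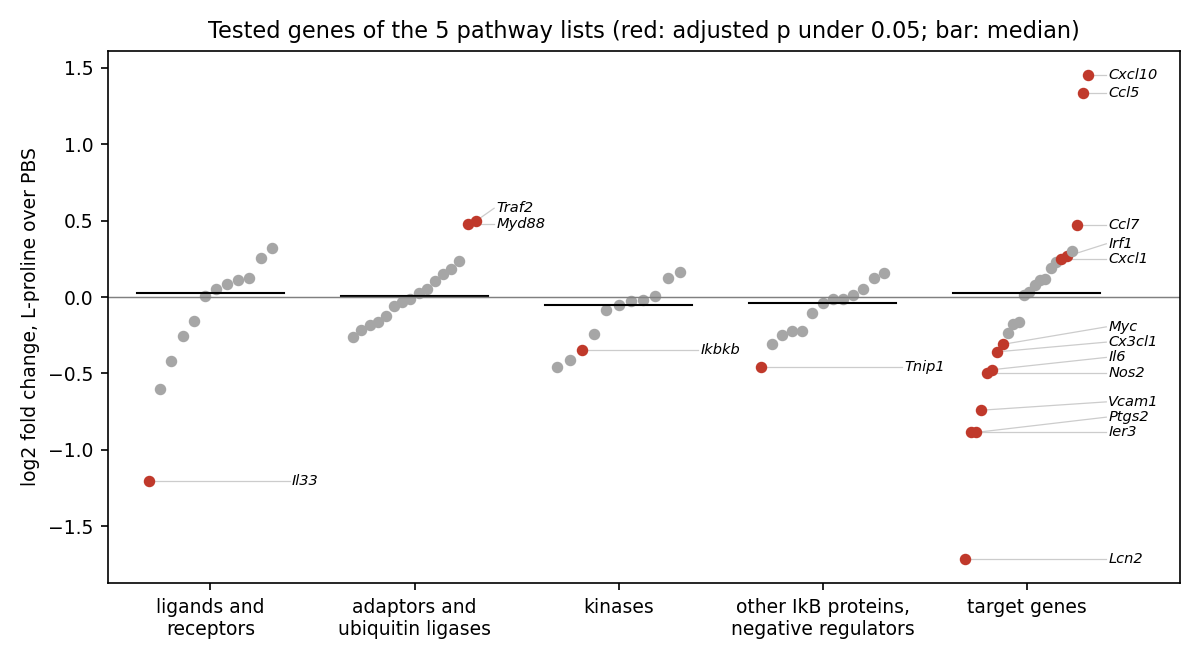
Log2 fold change, L-proline over PBS, of each tested gene in the 5 pathway lists, ordered within a list, with genes past the adjusted threshold in red and named, and a bar at each list's median. Target genes lie on both sides of 0, from -1.71 for Lcn2 to 1.45 for Cxcl10, and the medians of all 5 lists lie between -0.05 and 0.03.

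Known target genes of NF-κB moved in both directions. Of 24 tested, 5 rose and 8 fell, so 13 of 24 were called, against 19.6% among all tested genes (7.50% higher and 12.1% lower). The list had a median log2 fold change of 0.02, beside -0.06 for all tested genes. The list was written with earlier results of these data known, so its count is a description.

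The chemokine genes Ccl5 and Cxcl10 rose, and both are known to respond to interferon as well as to NF-κB. Ccl5, which attracts T cells and monocytes, was 82.1, 69.0 and 96.1 FPKM in L-proline, against 31.4, 32.0 and 32.0 FPKM in PBS (log2 fold change 1.33 ± 0.11; limma, adjusted p = 0.000417). Cxcl10 was 7.54, 6.46 and 6.27 FPKM in L-proline, against 1.41, 2.15 and 1.98 FPKM in PBS (1.45 ± 0.12; limma, adjusted p = 0.000423). The other 3 that rose were Ccl7, Irf1 and Cxcl1, with log2 fold changes of 0.47, 0.27 and 0.25. These 3 were named after their values were seen.

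Ier3, an early response gene that protects cells from death, fell to 63.5, 67.5 and 73.4 FPKM in L-proline, against 123, 128 and 129 FPKM in PBS (log2 fold change -0.89 ± 0.07; limma, adjusted p = 0.000381). Lcn2, a lipocalin that binds iron carriers, was 5.08, 7.04 and 7.84 FPKM in L-proline, against 27.7, 20.4 and 23.8 FPKM in PBS (-1.71 ± 0.16; limma, adjusted p = 0.000505). Lcn2 is also a neutrophil product, and the 2 neutrophil markers in the table, of 5, summed to at most 0.146 FPKM in L-proline and 0.139 to 1.14 FPKM in PBS. These levels are near the floor and the groups overlap. S100a8 was 0.146 FPKM in L-proline 2 and 0.139 FPKM in PBS 3, and S100a9 was above 0 in PBS 2 alone. The part of neutrophils was not tested. The adhesion gene Vcam1 also fell, at 44.9 ± 1.50 FPKM in L-proline and 75.7 ± 4.19 FPKM in PBS (SD, n = 3 each; limma, adjusted p = 0.000527).

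The remaining 5 that fell were Ptgs2, Nos2, Il6, Cx3cl1 and Myc, with log2 fold changes of -0.89, -0.49, -0.48, -0.36 and -0.31; these and Vcam1 were named after their values were seen. The groups overlapped for Ptgs2 and Il6. Of the 13 calls, Ier3, Lcn2, Vcam1, Ccl5, Cxcl10 and Ccl7 passed in all 6 fits that left out 1 library each. The other 7 missed the threshold in at least 2 of those fits, Cxcl1 with quantile normalization as well (adjusted p = 0.1004) and Myc with median-of-ratios scaling (adjusted p = 0.0717). Il6 missed it also without the filter, with voom and under each of 3 scalings (adjusted p = 0.0564 to 0.0747). Ptgs2 missed it without the filter (adjusted p = 0.0761) and with rescaling (adjusted p = 0.0583). Some well-known targets hardly differed, among them the chemokine gene Cxcl5 at 684 ± 84.5 FPKM in L-proline and 674 ± 46.3 FPKM in PBS and the manganese superoxide dismutase gene Sod2 at 34.7 ± 2.06 FPKM in L-proline and 34.0 ± 1.29 FPKM in PBS. Cxcl5 and Sod2 were also named after their values were seen.

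**Figure D5:**
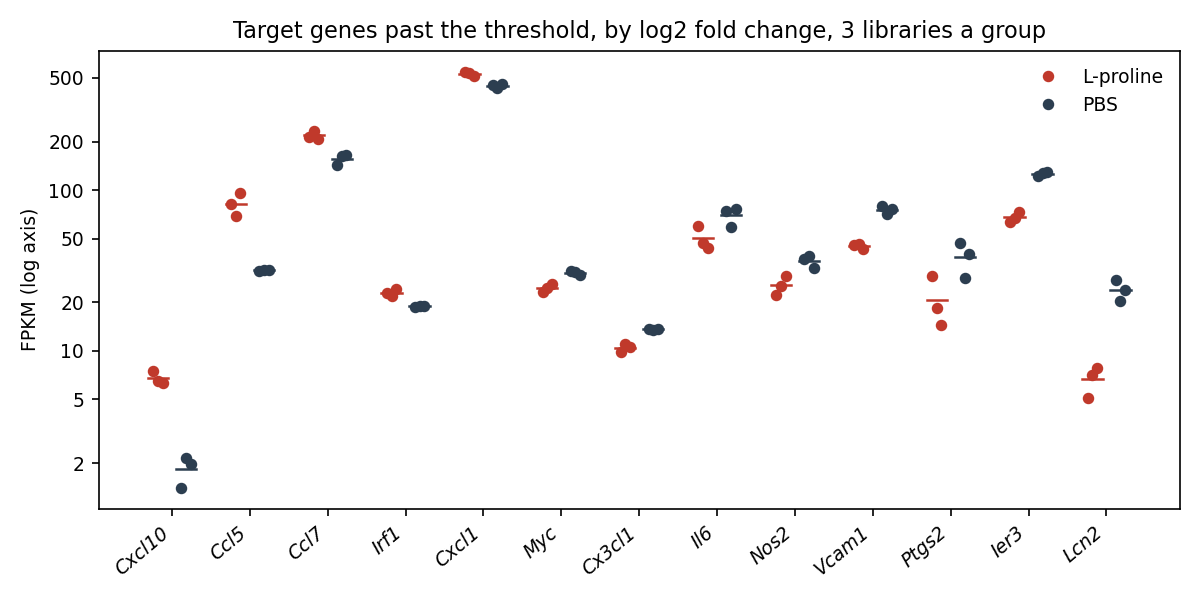
FPKM per library, on a log axis, of the 13 target genes past the threshold, ordered from the highest log2 fold change to the lowest, with L-proline points left of PBS points and bars at the means of 3 libraries. The groups overlap for Il6 and Ptgs2 and for none of the other 11.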

How the data were processed

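Polyadenylated RNA of left ventricle was sequenced as paired ends on a NovaSeq, per the labels' protocols. The authors deposited 1 table of FPKM values with 6 columns and 14408 gene symbols. HISAT2, HTSeq 0.13.5 and the build GRCm39 appear in the submitters' processing notes without a role. The gene models and lengths behind the values are not stated in the sources used here. Titles gave the groups and replicate numbers. No label ties a library to an animal of its own, so p-values reflect only the variation among these 6 libraries, possibly technical.

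Library totals were solved from 13 mitochondrial genes, and whole fragments within 0.0005 were found for 14407 genes. Intervals from fragments cover counting error only. Genes with a mean of at least 1 FPKM (10500) entered a limma fit (version 3.58.1, R 4.3.3) of log2(FPKM + 1) (two-sided, empirical Bayes with a mean-variance trend, Benjamini-Hochberg over all tested genes, threshold 0.05). Fold changes on this scale understate those of low genes. "Rose" and "fell" mark genes past the threshold. Both this fit and the recovery of fragments were tested on simulated data. The simulation for the fit held no deviation shared between libraries, unlike these data, so it does not cover that feature.

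The members and the 5 pathway lists were chosen with earlier results of these data known. Named are all 10 members and up to 4 genes of each list with the smallest p. Also named are the 3 genes most like the member with the smallest p, and cell type markers for their levels. Others are said to be chosen after their values were seen. Alternatives were a pseudocount of 0.1, no filter or a filter of 5 FPKM, 3 scalings, voom on fragments, sample weights, a replicate block and leaving out each library. Promoter sequences are RefSeq's for GRCm38.p6, which is not the build in the processing notes, and were matched by symbol.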

Additional observations from a re-analysis of the deposited data

How the results depend on the processing

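The direction and side of the threshold of Tnfaip3 held in all 15 alternatives. Counts of genes and the calls of other members were less stable. The number of members past the threshold was 1 in the main limma fit, where 2056 of 10500 tested genes passed. Rescaling without mitochondrial and the 20 most abundant genes gave 2 members (Nfkbia -0.20, adjusted p = 0.0499) and 2280 of 10502 genes. Sample weights gave 4 members, beside 4671 of 10500 genes. Those other than Tnfaip3 were Rel (-0.48, adjusted p = 0.0215), Nfkbie (-0.36, adjusted p = 0.00578) and Nfkbiz (-0.35, adjusted p = 0.00273). With 1 library left out, 1 to 2 members passed, beside 870 to 2762 genes. Leaving out 1 library reversed 2 near-zero changes, Nfkb1 (-0.0213 to 0.083, the lowest without L-proline 2) and Relb (-0.00599 to 0.104, the lowest without L-proline 3). The ranges of the other members were -0.27 to -0.16 for Nfkb2, -0.55 to -0.15 for Rel, 0.05 to 0.19 for Rela, -0.21 to -0.12 for Nfkbia, -0.20 to -0.12 for Nfkbib, -0.35 to -0.19 for Nfkbie, -0.39 to -0.22 for Nfkbiz and -0.73 to -0.67 for Tnfaip3. Members lower without overlap numbered 6 with the deposited FPKM, 5 with rescaling, 2 with quantile normalization and 1 with median-of-ratios scaling (24.0%, 25.8%, 18.9% and 18.3% of all tested genes), counts added after the data were seen.

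Over all genes, 788 were higher and 1268 lower; sample weights gave 1798 and 2873, and leaving out 1 library gave 362 to 965 and 508 to 1797. The split turned with scaling, to 1079 higher and 1015 lower after quantile normalization and to 993 and 918 after median-of-ratios scaling. Of 76 tested genes in the 5 pathway lists together, 7 were higher and 11 lower, against 7.50% and 12.1% of all tested genes. Sample weights gave 12 and 19, and leaving out 1 library gave 4 to 9 and 4 to 14. Among target genes, leaving out 1 library gave 3 to 6 higher and 3 to 8 lower. The cause of these changes was not tested; a fit without a library has fewer samples.

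Whether the replicate numbers pair the libraries was not settled by the values. Deviations of same-numbered libraries correlated at 0.651, 0.416 and -0.348 for numbers 1, 2 and 3, and those of differently numbered libraries at -0.75 to 0.525. With the replicate block 2 members passed, Tnfaip3 and Nfkbiz (-0.29, adjusted p = 0.0420), and 2383 genes over all. Among named pathway genes, Tnfrsf12a (adjusted p = 0.00808), Il1rap (0.0189), Tab2 (0.0339) and Ltbr (0.0367) passed with the block.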

Other observations

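In both directions, the shared deviation of L-proline 1 and PBS 2 was about as common in the pathway as among all tested genes. L-proline 1 was the highest and PBS 2 the lowest of its group for 25 of 86 tested members and pathway genes. This was 29.1%, against 27.6% of all tested genes. Among them were the members Tnfaip3, Rel and Nfkbiz, and Il33, Il6, Ptgs2 and Tab2. The reverse held for 24 (27.9%, against 29.8%), among them Rela, Nfkb1, Nfkb2 and Nfkbia.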
